A study of Homo sapiens with 6 samples.

Results

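The genes described here are the 3 D cyclins CCND1, CCND2 and CCND3, the G1 kinases CDK2, CDK4 and CDK6, and the CDK inhibitors CDKN1A, CDKN1B, CDKN2B and CDKN2C. They were taken by symbol from a deposited table of read counts, and all 10 were found among its 22503 genes. The counts come from CAL-27, an established cell line of tongue squamous carcinoma origin that keeps features of keratinocytes. The 3 DMSO libraries are from cells given only the solvent, and the 3 DHA libraries from cells given DHA, both for 48 h. The series concerns artemisinin derivatives, so DHA was taken to mean dihydroartemisinin, the active metabolite of these antimalarials. Its dose was not given in the sources used here. Both groups share the same single line, and no label states that the libraries come from separate cultures. The p-values therefore reflect only how far these samples spread, which may be technical.

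In G1, D cyclins bind CDK4 and CDK6 and begin to phosphorylate the retinoblastoma protein, and cyclin E with CDK2 completes this and frees E2F factors to switch on genes of DNA replication. CCND1, CCND2 and CCND3 answer to growth factor signals and can partly replace each other. The INK4 proteins, among them those of CDKN2B (p15) and CDKN2C (p18), bind CDK4 and CDK6, while the Cip/Kip proteins of CDKN1A (p21) and CDKN1B (p27) inhibit CDK2 complexes and help to assemble those of D cyclins. Much of this control acts on protein stability, which read counts of RNA do not measure.

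The library totals ran from 35980670 to 38120267 counts, and 14649 genes passed a filter on low counts, all 10 of these genes among them. Epithelial transcripts were abundant. The summed level of KRT5, KRT14, KRT6A, TP63, CDH1 and EPCAM was 3620 to 3670 CPM (counts relative to the scaled library total) in the DMSO libraries. In the DHA libraries it was 2910 to 3160 CPM. KRT5 alone was at 1670 to 2370 CPM over all libraries, while KRT14 was at 55.7 to 88.2 CPM. Summed fibroblast markers were at 13.5 to 23.4 CPM under DMSO and 9.13 to 13.2 CPM under DHA, with DCN near 0 and COL1A1 the most abundant, at 7.88 to 21.1 CPM over all libraries, and summed endothelial markers were at 16.4 to 26.5 and 15.4 to 18.6 CPM, with PECAM1 near 0 and CDH5 alone at 14.9 to 25.8 CPM over all libraries. The leukocyte markers PTPRC and CD3E were not among the genes of the deposited counts. CD14 alone was analysed, at 4.88 to 6.65 CPM under DMSO and 1.70 to 2.66 CPM under DHA. Of these 4 marker lists KRT6A rose and CD14 fell, where 2.70% of all tested genes were called. The calls were 1 among 6 epithelial markers, 0 among 4 fibroblast, 0 among 2 endothelial and 1 among 1 leukocyte marker tested. Both calls were lost without DMSO 1, with an adjusted p of 0.0544 for KRT6A and 0.0643 for CD14 by edgeR. KRT5, TP63 and CDH1 were not called but were lower in DHA without overlap, where 27.8% of all tested genes had none. Of the 6 epithelial markers, 2 had a log2 fold change above 0 and 4 below 0.

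DMSO 1 stood apart from the other DMSO libraries. Over all tested genes, the median distance of DMSO 1 from the mean of DMSO 2 and DMSO 3 was 0.266 on the log2 scale, against 0.0998 between DMSO 2 and DMSO 3. All 14 proliferation markers examined, among them MKI67, PCNA and the MCM helicase genes, were lower in DMSO 1 than in DMSO 2 and DMSO 3, and 12 of the 14 had their lowest value of all 6 libraries there. Their summed level was 2000 CPM in DMSO 1, 2540 CPM in DMSO 2, 2640 CPM in DMSO 3, and 2230, 2390 and 2450 CPM in DHA 1, DHA 2 and DHA 3. Values without DMSO 1 are given beside the results that it moved most. The part of the proliferation and cell type markers in the results was not tested.

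The promoter windows of CDKN1A and CDK4 are shown because these genes had the largest fold differences of the 10 between the groups. They are RefSeq windows of GRCh38.p14, each 300 bases long, from 250 bases before to 50 after a transcription start, written on the strand of the gene. CDKN1A lies on the plus strand at chr6:36678464-36678763, with capitals marking the GC box GGGCGG, and CDK4 on the minus strand at chr12:57752261-57752560, with capitals marking the E-box CACGTG.
CDKN1A: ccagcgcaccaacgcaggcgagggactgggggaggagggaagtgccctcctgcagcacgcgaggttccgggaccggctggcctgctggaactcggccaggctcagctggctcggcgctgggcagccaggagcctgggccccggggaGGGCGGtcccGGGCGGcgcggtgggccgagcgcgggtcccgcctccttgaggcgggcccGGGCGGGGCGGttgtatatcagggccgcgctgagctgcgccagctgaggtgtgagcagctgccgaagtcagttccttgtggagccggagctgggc
CDK4: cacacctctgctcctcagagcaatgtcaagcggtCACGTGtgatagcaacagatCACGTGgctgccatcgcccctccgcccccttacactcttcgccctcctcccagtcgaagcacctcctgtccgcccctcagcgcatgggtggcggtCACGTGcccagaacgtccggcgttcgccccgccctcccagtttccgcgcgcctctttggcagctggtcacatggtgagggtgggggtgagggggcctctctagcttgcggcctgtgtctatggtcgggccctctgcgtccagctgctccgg
The CDKN1A window held 4 GC boxes, their first bases at -104, -94, -45 and -40 from the start, of which the last 2 overlap by 1 base. Of 35116 promoter windows, 45.0% held at least 1 GC box on either strand and 15.8% held at least 3. The CDK4 window held 3 E-boxes, their first bases at -216, -196 and -101, and also 3 GC boxes. An E-box, the letters read by the MYC and MAX family of factors, was in 7.26% of windows, and 3 or more were in 0.0940%. For 7 of the 10 genes the table had a window, 12 in all, and the searches covered both strands. None of the 12 held a TATA box (TATAAA, in 11.5% of all windows), an AP-1 site (TGANTCA, 7.71%), an ATF4 element (TGATGNAA, 3.62%) or a CRE (TGACGTCA, 1.85%), where N is any base. Matches are descriptions of these letters, not sites shown to be bound.

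Levels of different genes were compared per exonic kilobase, with the exons of GENCODE 29. In DMSO CDK4 was the most abundant, at 79.6 ± 9.77 CPM per kb (SD, n = 3), followed by CCND1 at 47.8 ± 11.3, CDK2 at 27.9 ± 2.97, CDKN1A at 21.2 ± 9.40, CCND2 at 17.4 ± 0.780 and CDKN1B at 17.0 ± 1.84 CPM per kb. CCND3 at 10.7 ± 1.08, CDK6 at 8.68 ± 0.375, CDKN2C at 3.89 ± 0.139 and CDKN2B at 2.63 ± 0.885 CPM per kb came last. The neighbours CDK2 and CDKN1A, CDKN1A and CCND2, and CCND2 and CDKN1B overlapped between libraries, and the other neighbours in this order did not. In DHA the order was the same except that CDKN1A, at 34.1 ± 4.61 CPM per kb, stood above CDK2, at 25.4 ± 0.382 CPM per kb, and there CCND2 and CDKN1B and also CDKN1B and CCND3 overlapped. CDK6 has the longest exonic sequence of the 10, at 11.7 kb, and which transcript ends these cells use was not measured.

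**Figure D1:**
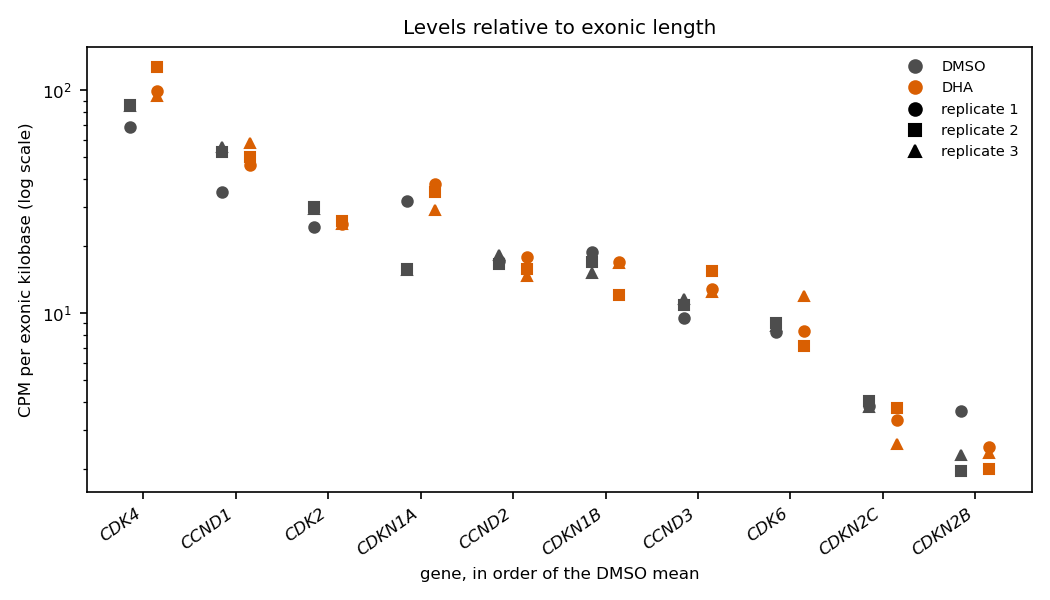
CPM per exonic kilobase (log axis) of the 10 genes, ordered by their DMSO mean, with 1 point per library, grey for DMSO and orange for DHA, and shapes for the replicate number. CDK4 and CCND1 lay at the top in both groups, CDKN2B and CDKN2C at the bottom, and CDKN1A was spread from 15.6 to 32.0 CPM per kb in DMSO.

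The comparison of DHA with DMSO asks whether these regulators differ in transcript level after exposure to the drug. In edgeR's quasi-likelihood test, adjusted over all genes, 0 of the 10 passed the threshold of 0.05, where 2.70% of all tested genes did. In DESeq2 0 of the 10 passed, against 6.96% of the genes it tested, and in limma-voom 0 passed, against 2.49%. At an unadjusted p under 0.05 there were 3, namely CDK4, CDKN1A and CCND3, all higher in DHA, which is 30.0% of the 10 against 20.3% of all tested genes. The groups did not overlap for CDK4 and CCND3, both higher in DHA, and for CDKN2C, lower in DHA, while 27.8% of all tested genes had no overlap. Of the 10 estimates 5 were above and 5 below 0, with a median log2 fold change of -0.0141 against 0.00281 for all tested genes. The median absolute log2 fold change was 0.175 for the 10 and 0.246 for all tested genes. For 9 of the 10, all but CDKN1A, the 95% interval lay within a 2-fold change in either direction. In these bulk samples, fewer cells of a state and less RNA per cell cannot be told apart.

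**Figure D2:**
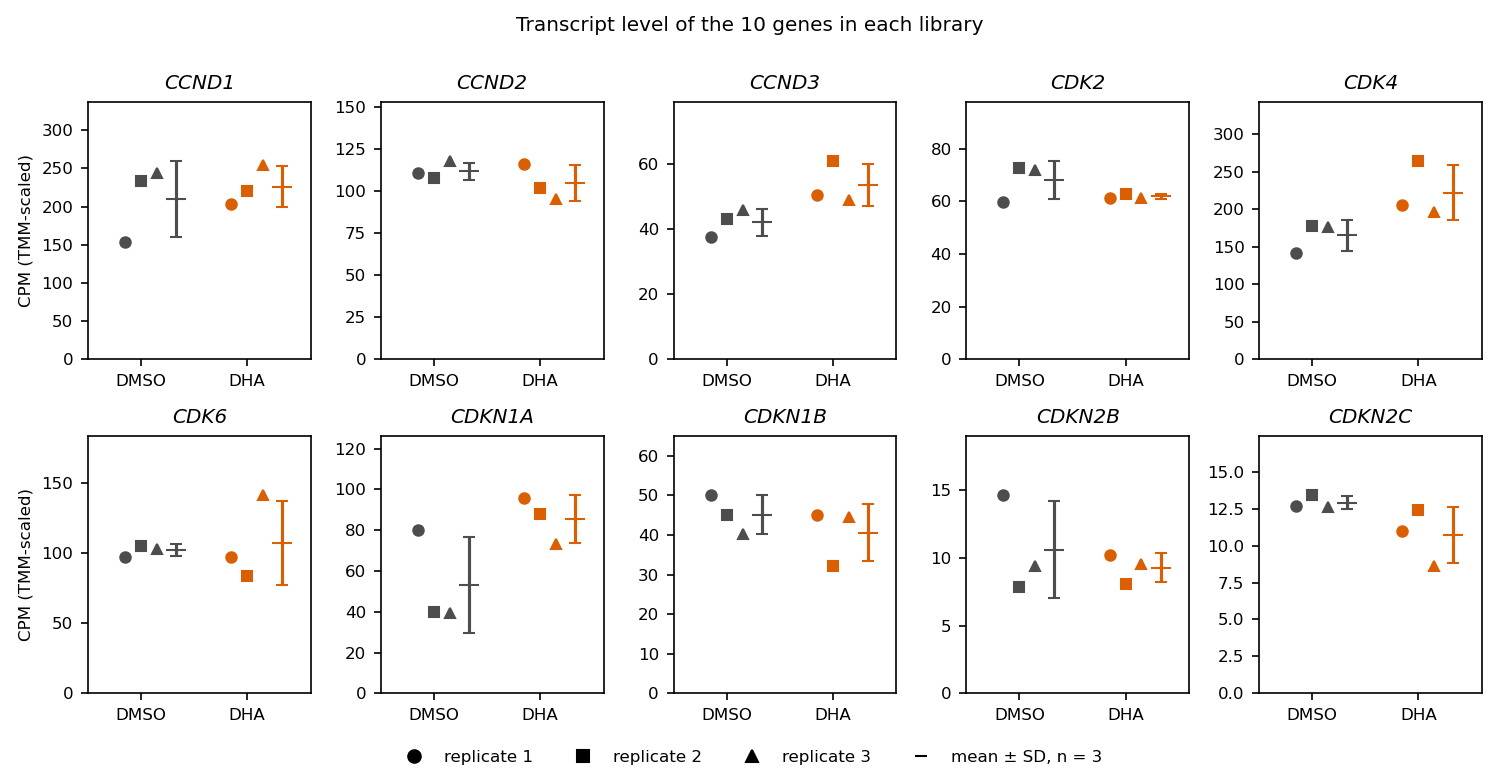
CPM after TMM scaling of the 10 genes in each library, 1 point per library with shapes for the replicate number, and the mean ± SD of 3 libraries to the right of each group. CDKN1A in DMSO 1, at 80.3 CPM, lay among the DHA libraries, far from 39.7 and 39.3 CPM in DMSO 2 and DMSO 3.

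Among the D cyclins, CCND1 encodes cyclin D1, often gained or overexpressed in squamous carcinomas. It lies on chromosome 11 at 69641156 to 69654474. Its level was 153, 233 and 244 CPM in DMSO 1, DMSO 2 and DMSO 3 and 203, 220 and 255 CPM in DHA 1, DHA 2 and DHA 3. The groups overlapped, and the lowest of the 6 values was that of DMSO 1. The log2 fold change was 0.10 ± 0.18 (SE), with a 95% interval of -0.31 to 0.51 (adjusted p = 0.774 by edgeR). Without DMSO 1 the estimate turned to -0.08 (adjusted p = 0.774 by edgeR). About 10.3% of the annotated exonic bases of CCND1 are shared with LTO1 on the opposite strand, and whether counting used the strand was not stated in the sources used here.

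CCND2, which encodes cyclin D2, lies on chromosome 12 at 4273762 to 4305353. It was at 111, 108 and 118 CPM in the DMSO libraries and at 116, 102 and 95.4 CPM in the DHA libraries, in the order of their numbers. Relative to its mean it varied least of the D cyclins between DMSO libraries, with a coefficient of variation of 4.50% against 10.1% for CCND3 and 23.6% for CCND1, and DMSO 1 lay between the other 2. The groups overlapped, with a log2 fold change of -0.10 ± 0.13 (SE) and a 95% interval of -0.39 to 0.18 (adjusted p = 0.657 by edgeR). AC008012.1, annotated on the same strand, shares 13.8% of the exonic bases of CCND2.

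CCND3, which encodes cyclin D3 on chromosome 6 at 41934933 to 42050035, was at 37.4, 42.9 and 45.7 CPM in DMSO and at 50.3, 60.8 and 49.0 CPM in DHA. Each DHA library was above each DMSO library, and DHA 2 was highest. The difference was 1.27-fold, with a 95% interval of 1.02 to 1.59 (log2 fold change 0.34 ± 0.14, SE), and it did not pass (adjusted p = 0.221 by edgeR). Without DMSO 1 the log2 fold change was 0.27, and without DHA 2 it was 0.24.

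By CPM per kb, CCND1 made up 56.7%, 65.7% and 65.0% of the 3 D cyclins together in DMSO 1, DMSO 2 and DMSO 3, and 60.0%, 61.6% and 68.1% in DHA 1, DHA 2 and DHA 3. CCND2 made up 23.3% ± 3.94 in DMSO and 20.0% ± 3.08 in DHA (SD, n = 3), and CCND3 14.2% ± 1.09 and 16.7% ± 2.20. The groups overlapped for all 3 shares.

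Of the kinases, CDK4 is the partner of D cyclins and lies on chromosome 12 at 57747727 to 57752310. Its level was 142, 178 and 176 CPM in the DMSO libraries and 206, 264 and 196 CPM in the DHA libraries. All DHA values were above all DMSO values, with DMSO 1 lowest and DHA 2 highest. The difference was 1.34-fold with a 95% interval of 1.05 to 1.71 (log2 fold change 0.42 ± 0.16, SE), and it did not pass (adjusted p = 0.177 by edgeR). The log2 fold change was 0.33 without DMSO 1 and 0.28 without DHA 2, and the lowest adjusted p with a library left out was 0.0789, without DHA 3. TSPAN31 runs on the opposite strand and shares 43.2% of the annotated exonic bases of CDK4, so counts of the pair may be mixed or dropped. Its own counts were 997, 1003 and 1051 in DMSO and 916, 1064 and 732 in DHA, so the groups overlapped. Among the DHA libraries TSPAN31 and CDK4 were both highest in DHA 2 and lowest in DHA 3. The part of shared reads in the CDK4 difference was not tested.

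CDK6, the other partner of D cyclins, lies on chromosome 7 at 92604921 to 92836573. It was at 96.9, 105 and 103 CPM in DMSO and at 97.3, 83.5 and 141 CPM in DHA. The DHA libraries enclosed the DMSO libraries, with DHA 2 lowest and DHA 3 highest of all 6. The log2 fold change was 0.08 ± 0.19 (SE), with a 95% interval of -0.34 to 0.49 (adjusted p = 0.839 by edgeR), and it was 0.04 without DMSO 1 and turned to -0.16 without DHA 3. Among the DHA libraries alone, DHA 2 was highest for CDK4 and lowest for CDK6, and DHA 3 the reverse. The ratio of CDK4 to CDK6 in CPM per kb was 11.9, 17.9 and 7.83 in the DHA libraries against 8.27, 9.53 and 9.65 in the DMSO libraries.

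CDK2, the partner of cyclins E and A, lies on chromosome 12 at 55966830 to 55972789. It was at 59.6, 72.7 and 71.7 CPM in DMSO and at 61.4, 62.9 and 61.2 CPM in DHA. The DHA libraries lay close together, between DMSO 1 and the other DMSO libraries. Its fitted log2 fold change was -0.14 ± 0.13 (SE), with a 95% interval of -0.42 to 0.15 (adjusted p = 0.562 by edgeR), and -0.22 without DMSO 1 (adjusted p = 0.357 by edgeR). AC025162.1 on the opposite strand shares 14.5% of the exonic bases of CDK2.

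**Figure D3:**
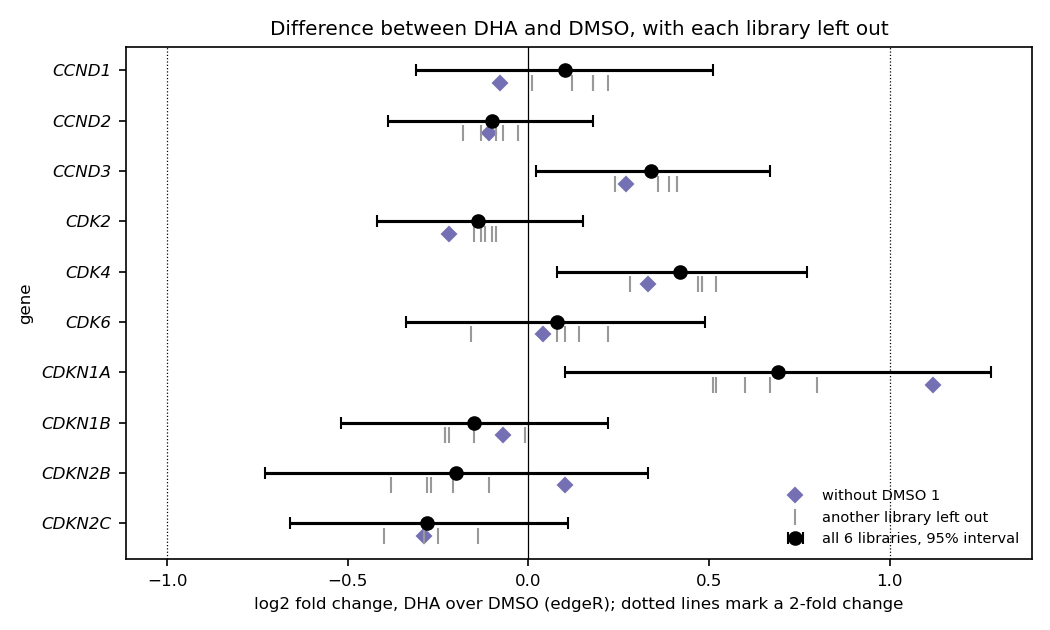
Log2 fold change of DHA over DMSO from edgeR for the 10 genes, as black points with 95% intervals for all 6 libraries, purple diamonds without DMSO 1 and grey ticks with another library left out. CDKN1A moved from 0.69 to 1.12 without DMSO 1, and CCND1 and CDKN2B changed sign.

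Among the inhibitors, CDKN1A showed the largest difference of the 10. It encodes p21, a target of p53 that is also induced by other stress and growth factor signals, and lies on chromosome 6 at 36676463 to 36687332. Its level was 80.3, 39.7 and 39.3 CPM in DMSO 1, DMSO 2 and DMSO 3, and 95.7, 88.0 and 73.0 CPM in DHA 1, DHA 2 and DHA 3. DMSO 1 lay above DHA 3, so the groups overlapped, while DMSO 2 and DMSO 3 were far below all DHA libraries. The difference over all libraries was 1.61-fold with a 95% interval of 1.07 to 2.43 (log2 fold change 0.69 ± 0.26, SE), and it did not pass (adjusted p = 0.190 by edgeR). Without DMSO 1 the log2 fold change was 1.12 and passed the threshold (adjusted p = 0.0247 by edgeR), where 1.20% of all tested genes did. With another library left out it ran from 0.51 to 0.80 and passed in none of those 5 fits. The DMSO libraries in that fit were 2, at nearly equal levels of CDKN1A.

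The level of CDKN1A in DMSO 1 was 2.04 times the mean of DMSO 2 and DMSO 3, and the mean of the DHA libraries was 2.17 times that mean. A distance of DMSO 1 as large as that of CDKN1A was seen in 4.95% of tested genes, as that of CDKN2B in 10.5% and as that of CCND1 in 15.0%. In DMSO 1 the inhibitors CDKN1A and CDKN2B were thus high and CCND1 was low, at 0.642 times the mean of the other 2. The other inhibitors and D cyclins lay closer to that mean, CDKN2C at 0.973, CDKN1B at 1.17, CCND2 at 0.98 and CCND3 at 0.844 times. Distances as large as theirs were seen in 91.5%, 55.5%, 93.7% and 53.2% of tested genes. In the DHA libraries CCND1 was at 0.946 times and CDKN2B at 1.08 times the same mean. The ratio of CDKN1A to CCND1 in CPM per kb was 0.919, 0.298 and 0.282 in DMSO 1, DMSO 2 and DMSO 3 and 0.829, 0.701 and 0.502 in DHA 1, DHA 2 and DHA 3.

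CDKN1B, which encodes p27, lies on chromosome 12 at 12717368 to 12722369. It was at 50.0, 45.0 and 40.2 CPM in DMSO and at 45.0, 32.2 and 44.6 CPM in DHA. DHA 2 was the lowest, and the other DHA libraries lay within the range of DMSO. The log2 fold change was -0.15 ± 0.17 (SE), with a 95% interval of -0.52 to 0.22 (adjusted p = 0.623 by edgeR), -0.07 without DMSO 1 and -0.01 without DHA 2. Set against CDKN1B, CDKN1A stood at 1.70, 0.934 and 1.03 in DMSO and at 2.25, 2.89 and 1.73 in DHA as a ratio of CPM per kb. This ratio did not overlap between the groups, although DMSO 1, at 1.70, came close to DHA 3, at 1.73. The other ratios and the D cyclin shares given here did overlap. Of single genes, 27.8% of those tested had no overlap, and how often ratios of other genes have none was not examined.

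CDKN2B, which encodes the INK4 inhibitor p15, lies on chromosome 9 at 22002903 to 22009313. It was at 14.6, 7.85 and 9.36 CPM in DMSO and at 10.2, 8.08 and 9.53 CPM in DHA. DMSO 1 was the highest of the 6, and the DHA libraries lay close to DMSO 2 and DMSO 3. The log2 fold change was -0.20 ± 0.24 (SE), with a 95% interval of -0.73 to 0.33 (adjusted p = 0.652 by edgeR), and it turned to 0.10 without DMSO 1 (adjusted p = 0.792 by edgeR).

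CDKN2C, which encodes the INK4 inhibitor p18, lies on chromosome 1 at 50960745 to 50974634. Its level was 12.7, 13.4 and 12.6 CPM in DMSO and 11.0, 12.4 and 8.64 CPM in DHA. The DMSO libraries, DMSO 1 included, lay within a narrow range just above DHA 2, and DHA 3 was lowest. A log2 fold change of -0.28 ± 0.17 (SE) was fitted, with a 95% interval of -0.66 to 0.11, which did not pass (adjusted p = 0.384 by edgeR). Without DHA 3 it was -0.14.

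Around these genes, 7 lists of the same pathway held 111 genes, of which 109 were tested. Of these 3 rose and 0 fell, which is 2.75% against 2.70% of all tested genes, and all 3 were p53 targets. An unadjusted p under 0.05 was found for 20 of the 109. For the counts per list below, the share of all tested genes at an unadjusted p under 0.05 was 20.3%. DESeq2 called 6.96% and limma-voom 2.49% of all genes they tested. Cyclins E and A, their kinases and activators had 0 calls among 12 by edgeR or limma-voom and 1 by DESeq2. There were 2 with an unadjusted p under 0.05, and a median log2 fold change of 0.26, or 0.11 without DMSO 1. CDK7, the kinase that activates other CDKs, was at 51.3 ± 1.51 CPM under DMSO and 72.7 ± 5.91 CPM under DHA (SD, n = 3). The groups did not overlap, as for 27.8% of all tested genes, and the adjusted p was 0.0677 by edgeR. CDK7 passed in DESeq2 (adjusted p = 0.0112) and by edgeR without DHA 3 (adjusted p = 0.0344), a fit that called 789 genes against 395 with all libraries. It did not pass in limma-voom (adjusted p = 0.0707). With any other library left out its adjusted p was 0.124 to 0.282 by edgeR. For CCNE1, a cyclin E gene, the levels were 10.6 ± 2.19 CPM under DMSO and 14.8 ± 1.25 CPM under DHA, with an adjusted p of 0.188 by edgeR. The other CDK inhibitors gave 0 calls among 4, with 0 at an unadjusted p under 0.05 and 0 in DESeq2 or limma-voom. Their largest differences at 1 CPM or more were those of CDKN3, a phosphatase that acts on CDKs, with a log2 fold change of 0.26, and of the INK4 gene CDKN2D, with 0.23. Without DMSO 1, where CDKN3 was at 21.1 CPM against 31.0 and 35.7 CPM in the other DMSO libraries, that of CDKN3 was 0.07.

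Pocket proteins, E2F factors and partners in the DREAM complex gave 0 calls among 19 by edgeR or limma-voom and 1 by DESeq2. At an unadjusted p under 0.05 there were 2, and the median log2 fold change was -0.02. RBL2, the pocket protein p130 of resting cells, was at 83.5 ± 1.13 CPM under DMSO and 58.3 ± 10.1 CPM under DHA (SD, n = 3). Its groups did not overlap, as for 27.8% of all tested genes, and the adjusted p was 0.0990 by edgeR. It was 0.0383 in DESeq2 and 0.0299 by edgeR without DHA 3, where 789 genes were called against 395 with all libraries. In limma-voom the adjusted p was 0.0916, and with any other library left out it was 0.157 to 0.309 by edgeR. E2F7, a repressor among the E2F factors, was at 46.5 ± 4.26 and 67.0 ± 27.0 CPM, with DHA 3 alone at 97.6 CPM. Genes of the turnover of D cyclins and inhibitors gave 0 calls among 18, by edgeR as by DESeq2 and limma-voom, while 1 had an unadjusted p under 0.05, and their median was 0.08. At a mean of at least 1 CPM, the largest log2 fold changes there were 0.39 for SKP1 and 0.31 for FBXO4, both parts of ubiquitin ligases.

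Transcription factors known to regulate these genes gave 0 calls among 18 by edgeR or limma-voom and 1 by DESeq2. At an unadjusted p under 0.05 there were 6 of the 18, against 20.3% of all tested genes. Their median log2 fold change was -0.13, and 0.03 without DMSO 1. MXD1, an antagonist of MYC, was at 65.4, 43.9 and 46.3 CPM in DMSO and at 87.8, 71.2 and 94.9 CPM in DHA. As with CDKN1A, DMSO 1 was the highest DMSO library, but here the groups did not overlap. Its log2 fold change was 0.71 ± 0.18 (SE, adjusted p = 0.0773 by edgeR), and 0.91 without DMSO 1, which passed (adjusted p = 0.0418 by edgeR), as it did in DESeq2 (adjusted p = 0.0104). MYC and MAX were also higher in DHA without overlap, where 27.8% of all tested genes had none. Their log2 fold changes were 0.50 and 0.35 (adjusted p = 0.194 and 0.159 by edgeR), and 0.30 and 0.32 without DMSO 1. Of the 18, 7 had a log2 fold change above 0 and 11 below 0. FOXM1 and SMAD3 were also higher in DHA without overlap, with log2 fold changes of 0.31 and 0.26. FOXO1, CTNNB1 and STAT3 were lower without overlap, at -0.46, -0.28 and -0.25. MXI1, MXD4 and MNT, which like MXD1 belong to the MAX network, had estimates of -0.51, -0.18 and -0.14, with overlap. None of these was called by edgeR. FOXO4, a forkhead factor, was at 6.30 ± 2.06 CPM under DMSO and 4.32 ± 1.20 CPM under DHA (SD, n = 3, adjusted p = 0.315 by edgeR). Its log2 fold change was -0.54, and -0.25 without DMSO 1, which held the highest value, 8.59 CPM.

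Of the p53 targets other than CDKN1A, 3 of 24 rose and 0 fell in edgeR, where 2.70% of all tested genes were called. There were 6 calls in DESeq2, 4 in limma-voom and 1 by edgeR without DMSO 1. Over all genes tested the shares called were 6.96%, 2.49% and 1.20%, in that order. At an unadjusted p under 0.05 there were 8 of the 24, against 20.3% of all tested genes, and the median log2 fold change was 0.16. The 3 were SESN2, an inhibitor of mTORC1, BBC3, the pro-apoptotic PUMA gene, and GADD45A, a stress sensor, with log2 fold changes of 1.67, 0.82 and 0.72. All 3 are also known targets of stress factors other than p53. SESN2 passed with any single library left out, and without DMSO 1 its adjusted p was 0.0133 by edgeR. BBC3 and GADD45A passed without DHA 3 and in none of the other 5 such fits, with adjusted p of 0.100 and 0.0786 by edgeR without DMSO 1. GADD45A also missed the threshold with upper-quartile scaling (adjusted p = 0.0575 by edgeR), with unscaled totals (0.0661) and above a mean of 5 CPM (0.0597), where BBC3 missed it too (0.0508). PLK3, a stress-linked kinase, was at 4.82 ± 1.64 CPM under DMSO and 10.5 ± 0.576 CPM under DHA (SD, n = 3, adjusted p = 0.0520 by edgeR), and passed in limma-voom (adjusted p = 0.0434) and DESeq2 (adjusted p = 0.000926). Of the 24, 17 had a log2 fold change above 0 and 7 below 0.

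Proliferation markers gave 0 calls among 14, by edgeR as by DESeq2 and limma-voom, while 1 had an unadjusted p under 0.05. Their median log2 fold change was 0.02 with all libraries and -0.13 without DMSO 1. Of the 14, 8 had a log2 fold change above 0 and 6 below 0. PLK1, a mitotic kinase, was at 119 ± 20.8 CPM under DMSO and 162 ± 13.0 CPM under DHA, and BIRC5, which encodes survivin, at 84.7 ± 8.55 and 105 ± 14.8 CPM (SD, n = 3), neither past the threshold (adjusted p = 0.155 and 0.266 by edgeR). Their log2 fold changes were 0.44 and 0.31, and 0.31 and 0.23 without DMSO 1, which held the lowest value of both.

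**Figure D4:**
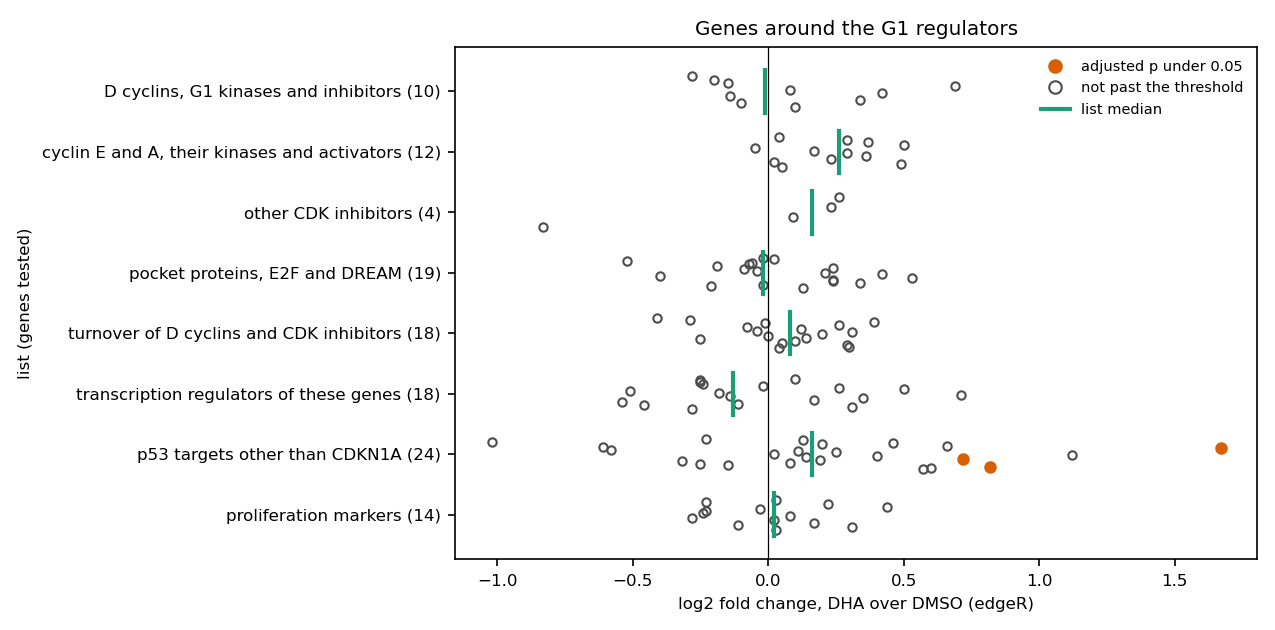
Log2 fold change of DHA over DMSO from edgeR for each tested gene of the 10 regulators and of 7 lists around them, 1 circle per gene, filled orange where the adjusted p was under 0.05, with a green bar at the list median. The 3 filled circles are SESN2, BBC3 and GADD45A, all p53 targets.

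Genes with the most similar profile were ranked by Pearson's r of log2 CPM over the 6 libraries, among 10640 genes with a mean of at least 5 CPM. For CDK4 they were NAA20 (r = 0.999), SSRP1 (0.998) and THOP1 (0.998), and 1140 genes reached an r of 0.9. For CCND1 they were CSE1L (r = 0.997), VRK1 (0.994) and RBBP8 (0.994), and 340 genes reached 0.9. For CDKN1A they were GNA11 (r = 0.995), PI4K2A (0.994) and KCMF1 (0.993), and 212 genes reached 0.9. GNA11, for example, was at 92.3, 74.6 and 74.2 CPM in the DMSO libraries and at 96.8, 97.2 and 88.3 CPM in the DHA libraries, with DMSO 1 near DHA as for CDKN1A. With 6 libraries that share their depth and scaling, these values describe the profile and nothing more.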

How the data were processed

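Total RNA of 6 samples was sequenced. Per the labels' protocols, TRIzol was used to isolate RNA, and a VAHTS Universal V10 kit to make the libraries. The submitters' processing notes name the build GRCh38 and the tools fastp, HISAT2, HTSeq and R, the last as version 3.2.0. Settings, annotation and strand use were not given in the sources used here. The values deposited by the authors are raw read counts for each gene, in whole numbers. Reads of overlapping genes may be dropped or mixed by such counting.

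Genes were filtered with edgeR's filterByExpr (minimum count 10), which kept 14649 of 22503. CPM are counts over TMM-scaled library totals, and 3 counts correspond to 0.0789 to 0.0830 CPM. DHA was tested against DMSO with edgeR 4.0.16 (quasi-likelihood, two-sided, treatment as the factor) in R 4.3.3, adjusted by Benjamini-Hochberg over all tested genes with a threshold of 0.05. The SE is the fold change over the square root of F, and 95% intervals use the fit's degrees of freedom. The common biological coefficient of variation was 18.5%. The fit was tested on simulated data. DESeq2 1.42.0, limma-voom (limma 3.58.1), other scalings and filters, a replicate block and each library left out were alternatives. Distances of DMSO 1 used log2 of CPM plus 0.1, and r used log2 CPM with a prior count of 2.

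Genes and lists were chosen with earlier results of these data known. Beside the 10 genes, the text names each called gene of a pathway list, the 2 with the largest absolute log2 fold change at a mean of at least 1 CPM, and the 3 genes most like CDK4, which had the smallest p, CCND1 and CDKN1A. GNA11 values, MYC, MAX, the other transcription factors named besides MXD1 and FOXO4, and the markers named as examples were chosen after values were seen. Coordinates are those of RefSeq for GRCh38.p14, 1-based.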

Additional observations from a re-analysis of the deposited data

How the results depend on the processing

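The number of the 10 genes called was 0 with DESeq2 size factors, upper-quartile scaling, unscaled totals, no filter, a mean of at least 5 CPM, DESeq2 and limma-voom, and 0 to 1 with a library left out, the 1 being CDKN1A without DMSO 1. The count over all genes, 395, was 649 with no filter, 252 above a mean of 5 CPM, 1080 in DESeq2, and 16 (without DHA 1) to 789 (without DHA 3) with a library left out, with 178 without DMSO 1, 46 without DMSO 2, 168 without DMSO 3 and 189 without DHA 2. The 3 calls among pathway genes became 2 with upper-quartile scaling or unscaled totals, 5 with no filter, 1 above 5 CPM, 9 in DESeq2, and 1 to 6 with a library left out, with 1 without DMSO 2, DMSO 3, DHA 1 or DHA 2 and 6 without DHA 3.

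With the replicate number as a block, 1272 genes, 1 of the 10 (CDKN1A, at a log2 fold change of 0.76 with an edgeR adjusted p of 0.00670) and 11 pathway genes were called. Deviations of same-numbered libraries correlated at 0.258, 0.119 and -0.0397, and those of differently numbered libraries at -0.26 to 0.117. Whether the numbers pair the samples cannot be told from these values.

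Of 140 estimates for the 10 genes under an alternative, 3 changed sign, those of CCND1 and CDKN2B without DMSO 1 and of CDK6 without DHA 3, none of them called. With each library left out, the estimates ran from -0.08 to 0.22 for CCND1, from -0.38 to 0.10 for CDKN2B and from -0.16 to 0.22 for CDK6. For the pathway genes named, 1 of 224 changed sign, that of CDKN2D without DHA 2, with a range of -0.01 to 0.46. No scaling moved the median of all genes by more than 0.031 on the log2 scale. The cause of these shifts was not tested. Each of the 10 genes had at least 285 counts in every library.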
